A study of Homo sapiens with 14 samples.

Results

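The response of CWR22Rv1 cells to P-SiaFNEtoc was read from RNA-seq counts, across all genes of the table that pairs this inhibitor with its vehicle control. The table gave 6 of the 14 libraries of the series: 3 of cells kept for 72 h in 2 μM P-SiaFNEtoc and 3 of cells kept for 72 h in DMSO, the solvent of the inhibitor. It listed 27845 genes, of which 14259 had enough counts to be tested. CWR22Rv1 is an established human prostate cancer line that expresses the androgen receptor, and all 6 libraries came from this line, at a single dose and a single time. The study states biological repeats for each condition, and p-values measure the spread between these libraries.

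Sialic acids are acidic sugars that cap the outer ends of glycans on cell surface and secreted proteins and on glycolipids. The cell makes CMP-sialic acid, moves it into the Golgi and transfers it to galactose, N-acetylgalactosamine or another sialic acid by a family of sialyltransferases. P-SiaFNEtoc is a cell-permeable metabolic inhibitor of these transferases. Sialylated caps are the ligands of Siglecs and mask the galactose residues that galectins bind, and they are common on prostate tumor cells.

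The DMSO libraries held 15398882 to 17689808 counts and the P-SiaFNEtoc libraries 15424545 to 19981453, so that depth overlapped between the groups. Values below are CPM (counts scaled to the size of each library, after TMM normalization), given in the order of replicates 1, 2 and 3. A gene is called when its edgeR adjusted p-value is below 0.05, and a fold change is the log2 difference of P-SiaFNEtoc over DMSO with its standard error (SE). Of the 14259 genes tested, 16.3% were called, 9.02% higher and 7.33% lower, and the CPM of the groups did not overlap for 33.7%. Counts of list members called against DMSO are to be read beside the 9.02% and 7.33%. Most calls were small, with a median log2 rise of 0.27 among genes called higher and a median fall of 0.22 in size among genes called lower. A log2 difference beyond 0.58 together with a call was seen for 240 genes (1.68%), 205 of them higher and 35 lower. KLK2, KLK3, HOXB13, KRT8 and KRT18, which mark luminal prostate cells, were counted in every library, and 12 of 16 markers of stromal, endothelial, immune, basal and neuroendocrine cells had too few counts to test.

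Sequences upstream of a RefSeq start of the genes that carry the results were taken from the RefSeq promoter windows of GRCh38.p14. These run from 250 bases before to 50 bases after each start and covered 11303 of the tested genes. The stretches of CENPA, HSPA8, HSPD1, CHAC1, AKR1C1 and AKR1C2 overlap an annotated exon. Each is printed 5′ to 3′ on the strand of its gene, in lower case, with the letters searched for in capitals on either strand. A match is a description of these letters and not a site of binding. For the chromosome segregation genes the letters were TTTGAA, the core of the cell cycle genes homology region found in promoters of genes expressed in mitosis. They occur in the windows of 13.3% of tested genes. The mitotic genes CENPA and KIF18A hold them close to the start:
CENPA (chr2:26786026-26786055, + strand): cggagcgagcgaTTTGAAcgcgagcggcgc
KIF18A (chr11:28108157-28108190, - strand): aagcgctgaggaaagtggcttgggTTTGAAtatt
For the heat shock genes the letters were GAA, TTC and GAA in turn with 2 free bases between them, the repeated unit recognised by heat shock factors, which occur in the windows of 0.460% of tested genes. The windows of HSPA8, HSP90AA1 and HSPD1 hold them:
HSPA8 (chr11:123062171-123062199, - strand): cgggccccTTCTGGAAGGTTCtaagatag
HSP90AA1 (chr14:102087096-102087156, - strand): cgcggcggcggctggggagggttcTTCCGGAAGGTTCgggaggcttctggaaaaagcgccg
HSPD1 (chr2:197500065-197500090, - strand): gcattTTCTGGAAAGTTCtggaaccg
For CHAC1 and JDP2 the letters were TGATGNAA, the composite C/EBP-ATF element, which occur in the windows of 2.73% of tested genes:
CHAC1 (chr15:40953251-40953280, + strand): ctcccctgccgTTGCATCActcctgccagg
JDP2 (chr14:75427982-75428021, + strand): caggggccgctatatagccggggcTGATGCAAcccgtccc
The aldo-keto reductase genes are shown because the near-identical copies stand together in the response. The letters are CCAAT, the CCAAT box, which occur in the windows of 43.2% of tested genes, and the stretches of AKR1C1 and AKR1C2 are the same letter for letter:
AKR1C1 (chr10:4963326-4963354, + strand): ctctcacatgccATTGGttaaccagcaga
AKR1C2 (chr10:5003922-5003950, - strand): ctctcacatgccATTGGttaaccagcaga
AKR1C3 (chr10:5048684-5048736, + strand): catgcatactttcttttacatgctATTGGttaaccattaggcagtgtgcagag

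The genes that make, move and remove sialic acid changed little in mRNA level. Of 15 listed genes of this pathway, 12 had enough counts to be tested, 1 was called higher and 0 lower (1 lower without DMSO replicate 1 or P-SiaFNEtoc replicate 1), with a median log2 difference of 0.02 beside 0.00 over all genes tested. The called gene was RENBP, the renin binding protein and N-acetylglucosamine epimerase, at 6.68, 6.13 and 5.99 CPM with DMSO and 9.79, 8.19 and 10.7 CPM with P-SiaFNEtoc. Its log2 rise was 0.61 ± 0.12 (SE, adjusted p = 0.000670), and its groups did not overlap.

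The steps on the direct route to CMP-sialic acid were not called. GNE, the enzyme that starts the pathway, had 8.94, 9.79 and 9.08 CPM with DMSO and 8.35, 8.13 and 7.27 CPM with P-SiaFNEtoc (log2 difference -0.22 ± 0.11, adjusted p = 0.167). CMAS, which activates sialic acid to CMP-sialic acid, was the most counted of the pathway at 150.4 to 157 CPM with DMSO and 143 to 147 CPM with the inhibitor. SLC35A1, the Golgi carrier of CMP-sialic acid, had a log2 difference of -0.17 ± 0.06 (adjusted p = 0.0573), and 51.9% of the 100-base windows of its transcript also occur in an overlapping annotated gene. NANS and NANP, the synthase and phosphatase in between, had log2 differences of 0.06 and -0.06. The sialidase NEU3 had a log2 difference of -0.27 ± 0.10 (adjusted p = 0.0607), and the lysosomal sialic acid exporter SLC17A5 one of 0.02. The lysosomal sialidase NEU1 had 2 counts over the 6 libraries and was not tested.

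Most of the tested sialyltransferases, the targets of the inhibitor, were not called. Of 20 listed, 13 were tested, 3 were called higher and 1 lower, with a median log2 difference of 0.09. Over all genes tested, 9.02% were called higher and 7.33% lower, and 1 lower of 13 is near that share. ST6GAL1, which adds α2,6-linked sialic acid to N-glycans, had 22.7, 20.4 and 25.7 CPM with DMSO and 36.6, 39.1 and 36.0 CPM with P-SiaFNEtoc. It rose by 0.70 ± 0.07 on the log2 scale (adjusted p = 2.83e-08), and the lowest treated library stood above the highest control. ST6GALNAC5, which sialylates gangliosides, rose by 0.64 ± 0.14 from 3.85, 4.41 and 4.12 CPM to 5.92, 6.44 and 7.01 CPM. ST3GAL3, an α2,3-sialyltransferase, went the other way, from 13.1, 13.6 and 17.0 CPM to 9.54, 10.1 and 10.4 CPM, and fell by 0.54 ± 0.10 (adjusted p = 0.000462).

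ST3GAL4, another α2,3-sialyltransferase, was called higher at 0.26 ± 0.09 (adjusted p = 0.0374), a call that was lost without DMSO replicate 2 or 3, without P-SiaFNEtoc replicate 2 or 3 (adjusted p from 0.0888 to 0.136) and after correction for GC content (adjusted p = 0.0895). ST3GAL1, the most counted member at 298 to 320.3 CPM with DMSO, was not called and its groups overlapped at 306 to 334 CPM. ST3GAL5, the GM3 synthase, had a log2 difference of 0.24 ± 0.09 (adjusted p = 0.0508) and was called under 6 alternatives, among them without DMSO replicate 2 (adjusted p = 0.0232), without P-SiaFNEtoc replicate 3 (0.0452) and after correction for GC content and length (0.0128). ST6GALNAC4 had a log2 difference of 0.29 ± 0.11 (adjusted p = 0.0568). ST3GAL2, ST3GAL6, ST6GALNAC2, ST6GALNAC6, ST8SIA1 and ST8SIA4 were not called either. The polysialyltransferase ST8SIA4 stood at 16.2 to 17.0 CPM with DMSO and 16.7 to 17.8 CPM with the inhibitor.

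**Figure D1:**
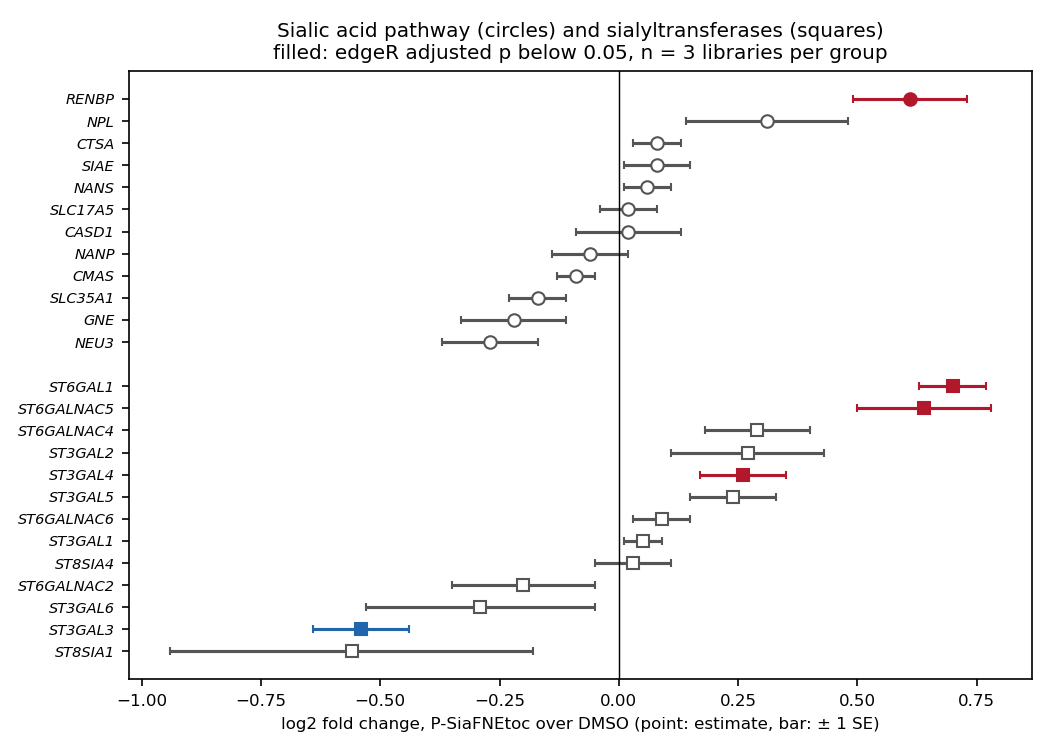
Log2 fold change of P-SiaFNEtoc over DMSO (x axis) of the 12 tested genes of the sialic acid pathway (circles) and the 13 tested sialyltransferases (squares), with ± 1 SE and n = 3 libraries per group. Filled symbols passed an adjusted p of 0.05: RENBP, ST6GAL1, ST6GALNAC5 and ST3GAL4 lie above 0 and ST3GAL3 lies below 0.

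The enzymes that build the glycans on which sialic acid is placed had 36 tested members, of which 6 were called higher and 2 lower (median 0.00). B3GNT3, which extends core 1 O-glycans, rose by 0.46 ± 0.09, and GALNT10, which starts O-glycans, rose by 0.38 ± 0.05 from 76.8 to 79.0 CPM to 93.3 to 108 CPM. MGAT4A, a branching enzyme of N-glycans, fell by 0.51 ± 0.10 from 12.6 to 14.8 CPM with DMSO to 8.89 CPM in the lowest treated library. C1GALT1, the core 1 O-glycan synthase, fell by 0.32 ± 0.09 (adjusted p = 0.00898), and that call was lost after correction for GC content (adjusted p = 0.0718), without DMSO replicate 2 and without P-SiaFNEtoc replicate 3. None of the 15 tested genes of the fucose pathway was called by edgeR, DESeq2 or limma-voom, and 1 had an unadjusted p below 0.05. Their log2 differences ran from -0.21 for FUT10 to 0.40 for GFUS.

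Of the lectins that read these glycans, 5 of 24 listed galectins and Siglecs had enough counts to be tested. LGALS4 had 2.32, 2.92 and 3.41 CPM with DMSO and 4.28, 5.20 and 3.83 CPM with P-SiaFNEtoc, a log2 rise of 0.62 ± 0.18 (adjusted p = 0.0141). LGALS1 was higher by 0.15 ± 0.05, and this was not called after correction for GC content (adjusted p = 0.528), nor without any 1 of 4 libraries. The LGALS4 call was lost without DMSO replicate 1 or P-SiaFNEtoc replicate 2 (adjusted p = 0.0757 and 0.101). Of the Siglecs, lectins of immune cells, SIGLEC10 had enough counts to be tested, with 110 over the 6 libraries, and it was not called (-0.22, adjusted p = 0.648).

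Surface glycoproteins and receptors were called higher more often than lower, 11 against 2 of 40 tested, with a median log2 difference of 0.06. CD24, a heavily sialylated mucin-like surface protein and a Siglec-10 ligand, had 15.7, 16.8 and 16.1 CPM with DMSO and 29.1, 29.8 and 23.6 CPM with P-SiaFNEtoc. It rose by 0.77 ± 0.08 (adjusted p = 6.38e-08), and the treated libraries all stood above the controls. MUC13, a transmembrane mucin, rose by 0.51 ± 0.05 from 82.6 to 96.2 CPM to 121 to 131 CPM. CD44, the hyaluronan receptor, rose by 0.39 ± 0.05 from 74.3 to 77.6 CPM to 97.5 to 103 CPM, and FGFR4 rose by 0.53 ± 0.11. The members called lower were FAS (-0.32) and ALCAM (-0.16), and neither was called without P-SiaFNEtoc replicate 3 or after correction for GC content and length, when the list had 15 members higher and 0 lower.

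Junction proteins were also called higher more often than lower. Of 33 tested, 12 were called higher and 2 lower (median 0.03), and 9 and 1 after correction for GC content and length. Over all genes tested the shares were 9.02% and 7.33%, and 7.73% and 5.84% with the correction. GJB1, which encodes connexin 32 of gap junctions, went from 2.94, 3.21 and 3.35 CPM to 7.71, 8.06 and 7.53 CPM, a log2 rise of 1.29 ± 0.14. GJA1, connexin 43, rose by 0.50 ± 0.06 from 39.7 to 44.4 CPM to 55.0 to 65.5 CPM. The tight junction genes CLDN4 and CLDN3 rose by 0.45 and 0.32 and the desmosomal cadherin DSC2 by 0.48. CDH17, a cadherin of intestinal epithelium, was outside this list and rose by 1.20 ± 0.13, from 4.02, 4.64 and 4.06 CPM to 10.3, 9.95 and 8.83 CPM. PKP2, a desmosomal plaque protein, was among the 2 members called lower (-0.24). Neither was called without DMSO replicate 2, DMSO replicate 3, P-SiaFNEtoc replicate 1 or P-SiaFNEtoc replicate 2, or with DESeq2.

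Laminins, adhesive proteins of basement membranes, had chains that changed in both directions. LAMB3, a β chain, rose by 0.94 ± 0.12, from 6.22, 4.87 and 5.02 CPM to 10.5, 10.3 and 10.2 CPM. LAMA3, an α chain, fell by 0.65 ± 0.08, from 22.2, 21.1 and 21.3 CPM to 14.4, 14.5 and 12.3 CPM (adjusted p = 1.26e-06). In both genes the groups were apart, and both calls held under every alternative tried. Across 24 tested integrins, laminins and related matrix genes, 7 were called higher and 1 lower, beside 9.02% and 7.33% of all genes tested. The count higher was 4 without P-SiaFNEtoc replicate 1 or 2, with DESeq2 or in a fit of all 14 libraries. Without DMSO replicate 2 the count lower was 2.

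Among the largest rises with at least 50 counts per library on average were those of the aldo-keto reductases of the AKR1C cluster on chromosome 10, enzymes that reduce steroids, prostaglandins and other carbonyls. AKR1C3, which makes testosterone from androstenedione, had 29.1, 28.6 and 29.6 CPM with DMSO and 56.7, 62.0 and 59.2 CPM with P-SiaFNEtoc. AKR1C2, which inactivates dihydrotestosterone, had 31.1, 29.8 and 31.7 CPM and 78.9, 81.0 and 66.7 CPM. AKR1C1, which inactivates progesterone, had 3.79, 3.95 and 4.32 CPM and 9.35, 9.43 and 9.02 CPM. The log2 rises were 1.03 ± 0.06, 1.29 ± 0.06 and 1.21 ± 0.13, each with groups far apart. Reads can be split between the copies, since 27.8% of the 100-base windows of the AKR1C2 transcript and 12.6% of those of AKR1C1 occur in another gene, and how such reads were counted is not given in the sources used here. Of 19 tested aldo-keto reductases, steroid dehydrogenases and UGT2B genes, 4 were called higher and 0 lower, the fourth being AKR1A1 (0.16, adjusted p = 0.0304). The AKR1A1 call was lost without any 1 of 4 libraries (adjusted p from 0.0550 to 0.145), with DESeq2 (0.0741) and after correction for GC content (0.235), and with GC content and length corrected 1 member of the list was lower.

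The AKR1C genes are also known targets of NRF2, and whether NRF2 had a part in their rise was not tested. Of 28 other NRF2 targets tested, 5 were called higher and 3 lower, with a median of 0.05. Of these targets 28.6% were called, beside 16.3% of all genes tested. After correction for GC content and length 7 were higher and 1 lower. The count lower was 1 without any 1 of 4 libraries (DMSO replicates 1 and 3, P-SiaFNEtoc replicates 1 and 2). NQO1, the most used marker of NRF2, had 609.6, 592 and 580.4 CPM with DMSO and 641, 614 and 571 CPM with P-SiaFNEtoc (log2 difference 0.04, adjusted p = 0.615). The transporter ABCC3 (1.14) and the glutathione peroxidase GPX2 (0.98) had the largest rises, from 0.802 to 1.41 and 1.37 to 2.26 CPM with DMSO. The transporter ABCC2 rose by 0.41 ± 0.07, and GCLM, a subunit of the enzyme that starts glutathione synthesis, fell by 0.19 ± 0.05. HMOX1 was higher by 0.20 ± 0.06. The calls of GCLM and HMOX1 were lost after correction for GC content (adjusted p = 0.143 and 0.213), and that of HMOX1 also without any 1 of 4 libraries.

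**Figure D2:**
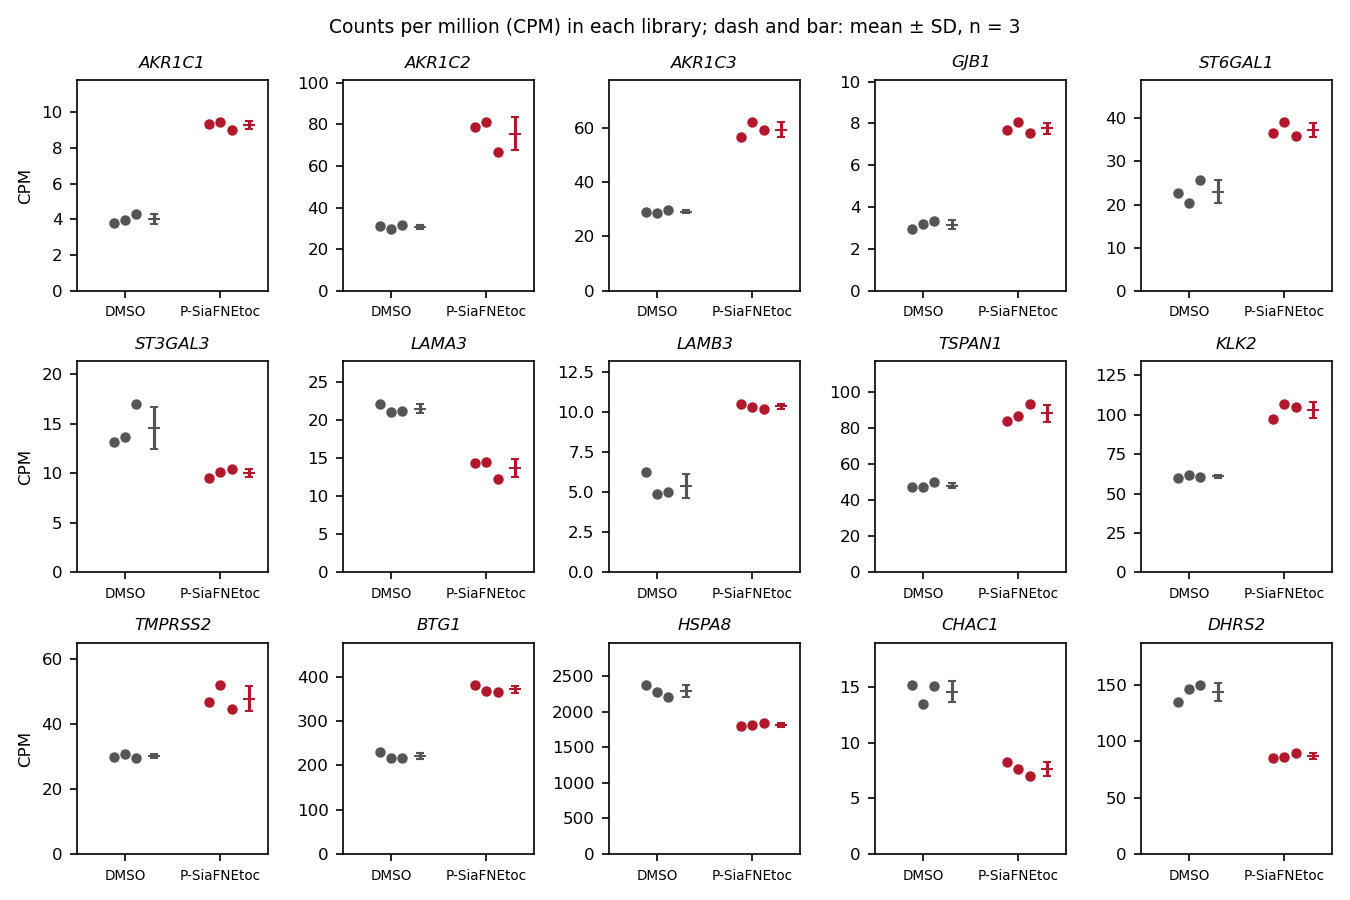
CPM of 15 genes in each of the 3 DMSO (grey) and 3 P-SiaFNEtoc (red) libraries, with the mean ± SD beside them and each y axis from 0. In every panel the groups are apart: AKR1C1, AKR1C2, AKR1C3, GJB1, ST6GAL1, LAMB3, TSPAN1, KLK2, TMPRSS2 and BTG1 are higher with the inhibitor and ST3GAL3, LAMA3, HSPA8, CHAC1 and DHRS2 are lower.

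Androgen-regulated genes were higher with P-SiaFNEtoc. Of 23 tested, 12 were called higher and 1 lower, with a median log2 difference of 0.14, and after correction for GC content and length 13 were higher and 0 lower. KLK2, a prostate kallikrein, had 59.9, 61.9 and 60.8 CPM with DMSO and 97.1, 107 and 105 CPM with P-SiaFNEtoc, a log2 rise of 0.76 ± 0.05 (adjusted p = 2.08e-12). KLK3, which encodes PSA, rose by 0.59 ± 0.06 from 33.2, 32.9 and 28.3 CPM to 48.9, 44.4 and 49.1 CPM. The surface protease TMPRSS2 rose by 0.67 ± 0.06 from 29.8, 30.8 and 29.6 CPM to 46.9, 52.0 and 44.6 CPM. NDRG1 rose by 0.71 ± 0.06, and 16.8% of the 100-base windows of its transcript occur in a second annotated gene. FKBP5, a cochaperone induced by the androgen receptor, was the member called lower (-0.15).

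The families of kallikreins, keratins, annexins, S100A proteins and tetraspanins were picked by symbol after their values were seen. Of 7 tested kallikreins, 6 were called higher, of 8 keratins 6, of 9 annexins 6 and of 5 S100A genes 4, with none lower in any of these 4 families, beside 9.02% of all genes tested. Of 18 tetraspanins 5 were called higher, 0 lower and 13 not at all, with a median of 0.08. KRT7, a keratin of simple epithelia, rose by 0.84 from 25.3 to 27.0 CPM to 45.4 to 49.7 CPM, and KRT8 and KRT19 rose by 0.40 each. ANXA2, a calcium-dependent membrane-binding protein, rose by 0.81, and its partner S100A10 by 0.58, from 117 to 124 CPM to 175 to 185 CPM. ANXA5, by contrast, was not called (-0.09). The tetraspanin TSPAN1 rose by 0.87 ± 0.05 from 47.1, 47.4 and 49.9 CPM to 83.8, 86.9 and 93.5 CPM, and VIL1, the actin bundler of microvilli, by 0.64 ± 0.05, and 44.2% of the exon bases of VIL1 overlap a gene on the other strand.

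Among the other large rises, PPP1R1B, a phosphatase inhibitor known from dopamine signalling, rose by 1.27 ± 0.12, and GPRC5A, a retinoic acid-induced receptor, by 1.09 ± 0.11. A2M, the protease inhibitor α2-macroglobulin, had 16.1, 14.7 and 16.6 CPM with DMSO and 33.9, 30.4 and 31.6 CPM with P-SiaFNEtoc. ASB9, a substrate adaptor of a ubiquitin ligase, rose by 1.15 ± 0.08 and REG4, a secreted lectin of the gut, by 1.02 ± 0.14. SOD3, the extracellular superoxide dismutase, went from 17.2 to 18.7 CPM to 34.1 to 34.9 CPM. CLU, the secreted chaperone clusterin, gave the largest rise in CPM among highly counted genes, from 1537, 1486 and 1502 CPM to 1921, 1889 and 2066 CPM (log2 rise 0.38 ± 0.04).

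Of 30 tested genes for secreted factors and for feedback of the WNT pathway and the hypoxia response, 13 were called higher and 0 lower (median 0.16). LGR5, a receptor of R-spondins and a WNT target, rose by 0.84 ± 0.11, from 6.68, 6.87 and 6.18 CPM to 11.9, 11.5 and 11.9 CPM. SPINK1, a secreted trypsin inhibitor, rose by 0.63 ± 0.05. RNF43, a ubiquitin ligase that removes WNT receptors, rose by 0.57 ± 0.05, and 76.1% of the 100-base windows of its transcript occur in an overlapping annotated gene. DKK1, a secreted WNT inhibitor, was higher, at 59.7, 52.0 and 59.5 CPM with DMSO and 68.6, 67.2 and 69.0 CPM with P-SiaFNEtoc (0.26 ± 0.05, adjusted p = 0.00101). VEGFA, the angiogenic growth factor, was not called and its groups overlapped, with 93.8, 99.6 and 96.8 CPM and 106, 99.0 and 96.0 CPM (0.06 ± 0.05, adjusted p = 0.449).

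CHAC1, which degrades glutathione and is induced by ATF4, gave the largest fall by log2 fold change among genes with at least 50 counts on average. It had 15.2, 13.5 and 15.1 CPM with DMSO and 8.30, 7.67 and 7.01 CPM with P-SiaFNEtoc (-0.92 ± 0.10, adjusted p = 1.08e-07), so the treated libraries stood well below. The ATF4 branch as a list was mixed. Of 33 tested members 9 were called higher and 5 lower, beside 9.02% and 7.33% of all genes tested. After correction for GC content and length there were 5 each, beside 7.73% and 5.84% of all genes. Without that correction, 2 were lower without P-SiaFNEtoc replicate 1 and 3 without DMSO replicate 1, DMSO replicate 3 or P-SiaFNEtoc replicate 2. GDF15, a stress-induced secreted factor, rose by 0.54 ± 0.04 from 172, 154 and 161 CPM to 242, 240.1 and 225 CPM, while DDIT3, the transcription factor CHOP, fell by 0.31 and ASNS, asparagine synthetase, by 0.13. The letters TGATGNAA shown for CHAC1 were in the windows of 8 of the 28 members with a window, of which CHAC1 and ASNS were called lower and JDP2 higher. The JDP2 call (adjusted p = 0.0408) was lost without any 1 of 4 libraries (adjusted p from 0.127 to 0.141), with DESeq2 (0.140) and after correction for GC content (0.0651), and the ASNS call was lost without any 1 of 4 libraries and after that correction.

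Among the other falls, DHRS2, a mitochondrial reductase, had 135, 146 and 149.6 CPM with DMSO and 84.8, 85.8 and 89.6 CPM with P-SiaFNEtoc. Its log2 fall was -0.73 ± 0.05 (adjusted p = 1.60e-12), and its groups were far apart. ANKRD29 fell by 0.81 ± 0.19, the noncoding LINC00624 by 0.77 ± 0.18, RSRP1 by 0.66 ± 0.11, the cadherin CDH12 by 0.66 ± 0.16, REEP1 by 0.60 ± 0.11 and the bicarbonate transporter SLC4A8 by 0.59 ± 0.12. TRNC, the mitochondrial cysteine tRNA, fell by 0.58 ± 0.16, and its call was lost without DMSO replicate 2 (adjusted p = 0.0711) or P-SiaFNEtoc replicate 1 (adjusted p = 0.0885). PEG10, an imprinted gene derived from a retrotransposon, fell by 0.36 ± 0.04, from 1617, 1648 and 1578 CPM to 1289.8, 1256 and 1229.8 CPM.

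Cytosolic and mitochondrial heat shock proteins were called lower more often than higher. Of 25 tested, 11 were called lower and 3 higher, with a median of -0.04, and 10 and 1 after correction for GC content and length. The count higher was also 1 without DMSO replicate 2 or P-SiaFNEtoc replicate 3. HSPA8, the constitutive HSP70 of the cytosol, had 2374, 2283 and 2205 CPM with DMSO and 1793, 1815 and 1842 CPM with P-SiaFNEtoc, a fall of 0.33 ± 0.04 on the log2 scale (adjusted p = 8.99e-07). DNAJB1, its HSP40 partner, fell by 0.44 ± 0.05 from 129, 116 and 121 CPM to 90.2, 89.6 and 90.5 CPM. HSP90AA1, the inducible cytosolic HSP90, fell by 0.21 ± 0.04, and HSPD1, the mitochondrial chaperonin, by 0.14 ± 0.04. The HSPD1 call was lost after correction for GC content (adjusted p = 0.448) and without any 1 of 3 libraries. HSPA1A and HSPA1B, the stress-induced HSP70 genes, had 1 and 0 counts over the 6 libraries. The small heat shock protein HSPB8 rose by 0.36 ± 0.07. This repeated unit was in the windows of 7 of 23 members, of which 6 were called lower, and 5 of the 16 without them were. Over all tested genes with a window, 19.2% of the 52 with these letters and 7.55% of those without were called lower, and 6 of the 10 lower genes with them are these members. After correction for GC content and length, 4 of the 7 members with these letters and 6 of the 16 without them were called lower.

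Beyond the stress genes of the cytosol, chaperones of the endoplasmic reticulum and proteins of its degradation pathway had 3 of 26 tested members called higher and 0 lower. The shares over all genes tested were 9.02% and 7.33%. In this list the count higher was 6 after correction for GC content and length, and 1 without DMSO replicate 3 or P-SiaFNEtoc replicate 2. HYOU1, an ER chaperone, was higher by 0.12 ± 0.04, and this was not called after correction for GC content (adjusted p = 0.230) or without any 1 of 3 libraries. No aminoacyl-tRNA synthetase was called of 19 tested (4 had an unadjusted p below 0.05, and DESeq2 and limma-voom each called 1), no proteasome gene of 34 (3 at an unadjusted p below 0.05, 0 by DESeq2 and 1 by limma-voom) and no mitochondrially encoded mRNA of 13 (0, 0 and 0). Without DMSO replicate 2, 4 of these mitochondrial mRNAs were called higher, and without P-SiaFNEtoc replicate 1 there was 1. Single calls appeared without 1 library among the synthetases (P-SiaFNEtoc replicate 3) and the proteasome genes (DMSO replicate 1 or P-SiaFNEtoc replicate 1). Of 23 tested p53 targets 7 were called higher, and 4 after correction for GC content and length, beside 9.02% and 7.73% of all genes tested. PLK2 rose by 0.43 ± 0.11 and TP53INP1 by 0.29 ± 0.06. The count of p53 targets called higher was 3 without P-SiaFNEtoc replicate 1, where the PLK2 call was lost (adjusted p = 0.0572). It was also 3 with DESeq2, and 4 without P-SiaFNEtoc replicate 3. In this list 1 member was lower without DMSO replicate 2 or P-SiaFNEtoc replicate 1. Metallothioneins, which bind zinc and copper, had 3 of 8 list members called higher, with MT1G rising by 0.57 ± 0.09, and 1 lower, their transcription factor MTF1 (-0.24), a call that was lost without DMSO replicate 2 (adjusted p = 0.0799) or P-SiaFNEtoc replicate 1 (adjusted p = 0.0671).

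Many cell division genes were lower. The count of members called was largest for the kinetochore and spindle list, with 31 of 48 tested lower, 0 higher and a median of -0.17. The count lower was 32 after correction for GC content and length, and 18 in a fit of all 14 libraries. CENPA, the histone variant that marks centromeres, had 25.6, 22.7 and 24.1 CPM with DMSO and 17.9 to 19.6 CPM with P-SiaFNEtoc (-0.39 ± 0.08, adjusted p = 0.000544). KIF18A, a kinesin that aligns chromosomes, fell by 0.33 ± 0.07 from 29.6 to 34.2 CPM to 25.4 to 25.8 CPM. CKAP2, a spindle protein, fell by 0.32 ± 0.04 from 183, 199 and 189.8 CPM to 156, 152 and 149 CPM. KNL1, the scaffold of the outer kinetochore, fell by 0.31 ± 0.05. The letters TTTGAA shown for CENPA and KIF18A were in the windows of 25 of 40 list members, and 19 of these 25 were called lower, as were 6 of the 15 without them. Over all tested genes with a window, 11.1% of those with these letters and 7.07% of those without were called lower. For the CCAAT box the list went the other way, with 17 of 30 members called lower with it and 8 of 10 without it, beside 8.86% and 6.66% over all tested genes. In bulk RNA a smaller share of dividing cells and less of these mRNAs per dividing cell cannot be told apart.

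DNA repair and replication genes fell in smaller numbers. Of 31 genes of homologous recombination and the Fanconi pathway, 13 were called lower and 0 higher (median -0.14), with and without correction for GC content and length. In a fit of all 14 libraries 8 were lower. FANCM, a translocase at stalled forks, fell by 0.40 ± 0.07 and XRCC2, a homologous recombination protein, by 0.38 ± 0.07. Of 46 DNA replication genes, 11 were lower and 1, the licensing factor CDT1, was higher (median -0.08). The count lower was 5 without DMSO replicate 3, P-SiaFNEtoc replicate 1 or P-SiaFNEtoc replicate 2, 7 without DMSO replicate 2, and 3 in a fit of all 14 libraries. RRM2, a subunit of ribonucleotide reductase, fell by 0.29 ± 0.04, from 462, 465 and 450.2 CPM to 369, 369 and 386 CPM. The CDT1 call was lost after correction for GC content (adjusted p = 0.108) and without P-SiaFNEtoc replicate 1 or 3.

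Genes known to slow the cell cycle were called in both directions. BTG1, an antiproliferative factor, had 229.5, 217 and 216 CPM with DMSO and 381, 368 and 365 CPM with P-SiaFNEtoc. Its rise of 0.75 ± 0.04 (adjusted p = 3.09e-14) was among the smallest p-values of the table. CDKN1B, which encodes p27, had 239, 236 and 234 CPM and 276, 279.5 and 283 CPM (0.24 ± 0.04), and CDKN1A, which encodes p21, rose by 0.22. TOB2, an antiproliferative factor, was lower by -0.22 (adjusted p = 0.000768), the CDK inhibitor CDKN2C by -0.20 (adjusted p = 0.0113) and the retinoblastoma gene RB1 by -0.13 (adjusted p = 0.0352), while BTG2, TOB1 and CDKN2B were not called. In the whole list of G1 regulators and the E2F and RB families, 3 of 42 tested members were higher and 10 lower, and 6 were lower without P-SiaFNEtoc replicate 2. CDK6, a G1 cyclin-dependent kinase, fell by 0.25 ± 0.06, E2F7, a repressor of E2F targets, by 0.35 ± 0.06 and LIN52, of the DREAM complex, by 0.38 ± 0.08.

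**Figure D3:**
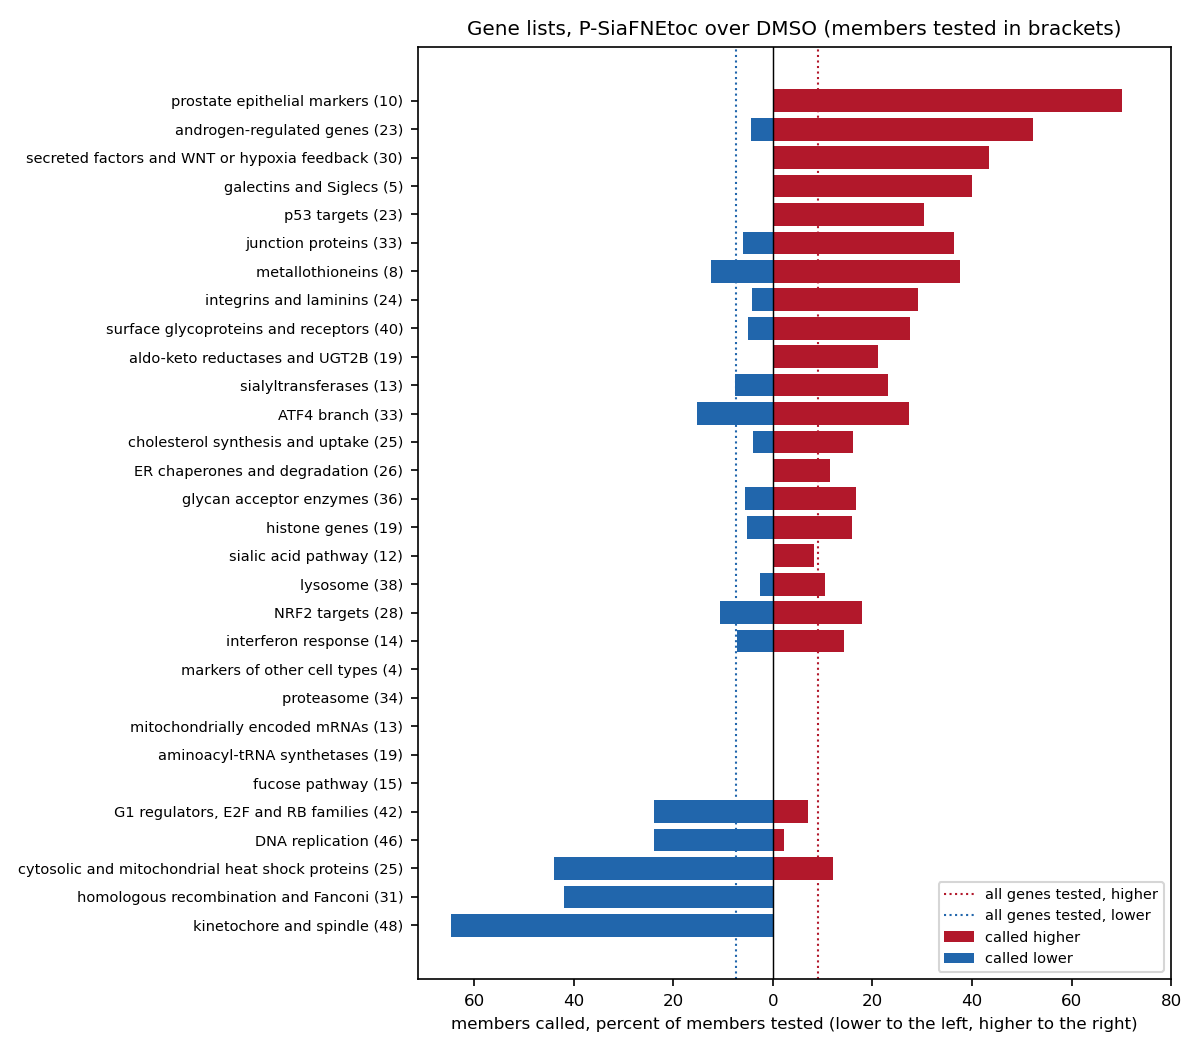
Members called higher (red, to the right) and lower (blue, to the left) in each list of genes, as a percent of the members tested (number in brackets), with dotted lines at the 9.02% and 7.33% of all genes tested. Kinetochore and spindle genes extend farthest to the left, with 31 of 48, and prostate epithelial markers farthest to the right, with 7 of 10.

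Calls moved with the base composition of the genes. The genes were put in 5 bins of equal size by the GC content of the longest transcript. In the bin of lowest GC, 2.49% were called higher and 18.7% lower, and in the bin of highest GC 19.7% were higher and 1.18% lower. Across the 14061 genes with a known transcript, the log2 difference had a Spearman correlation of 0.41 with GC content and of -0.21 with transcript length, where genes are not independent replicates. The slope of log2 CPM on GC content, against the DMSO mean, was 0.0599, 0.0686 and 0.0910 per 10% of GC in the P-SiaFNEtoc libraries and 0.0151, -0.0382 and 0.0231 in the DMSO libraries. The part of this trend in the calls was not tested. A correction for GC content and length, chosen after seeing the data, left 1935 calls (13.6%), 7.73% higher and 5.84% lower, of which 1338 were shared with the 2331 calls without it, all in the same direction. The zinc finger genes, which are long and low in GC, were looked at after their values were seen. Of 467 tested, 72 were called lower and 16 higher, and 45 and 10 after the correction.

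**Figure D4:**
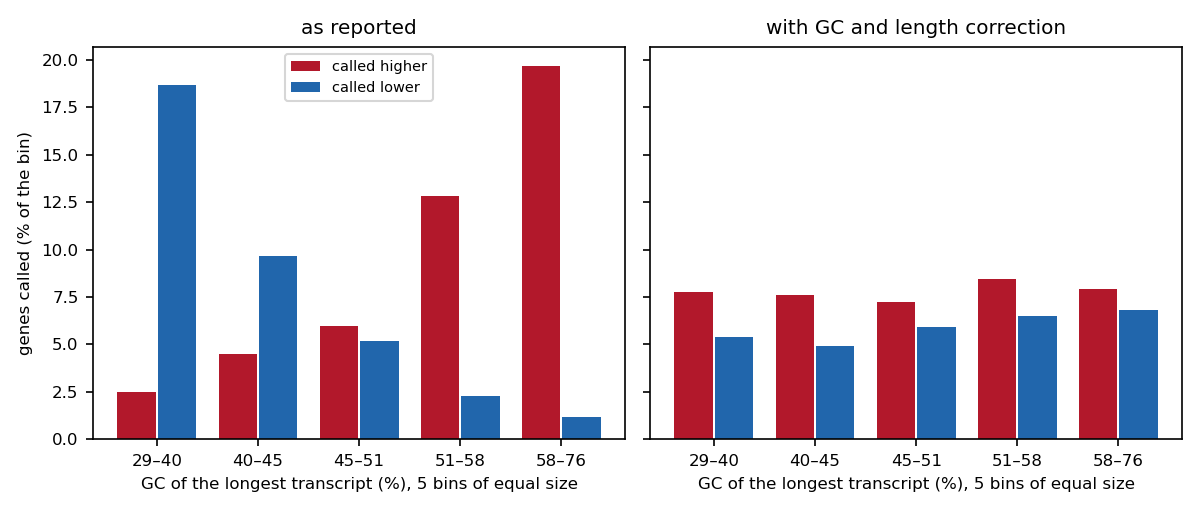
Percent of genes called higher (red) and lower (blue) with P-SiaFNEtoc in 5 bins of the GC content of the longest transcript, as reported (left) and with correction for GC content and length (right). Without the correction the share called higher goes from 2.49% to 19.7% from the lowest to the highest bin, and with it from 7.74% to 7.91%.

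P-SiaFNEtoc was also set against the fucosylation inhibitors SGN-2FF (100 μM, 72 h) and Fucotrim I (30 μM, 72 h), with 3 libraries each of the same cells. The doses differ, and the comparisons share the P-SiaFNEtoc libraries. Against SGN-2FF 13.0% of 14261 genes were called, 850 higher with P-SiaFNEtoc (5.96%) and 1000 lower (7.01%), and against Fucotrim I 34.6% of 14216 genes were called, 17.1% higher and 17.5% lower. The 1850 calls against SGN-2FF became 1047 without SGN-2FF replicate 2 and 2564 after correction for GC content and length. The slopes on GC content, against the DMSO mean, were 0.0823, 0.0723 and 0.00567 in the SGN-2FF libraries. In the Fucotrim I libraries they were 0.196, 0.0966 and 0.183. AKR1C2 was higher with P-SiaFNEtoc than with SGN-2FF by 0.83 on the log2 scale (adjusted p = 8.56e-15) and than with Fucotrim I by 0.95, and REG4 by 0.74 and 3.00.

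Several of the genes that moved most against DMSO did not differ beyond the spread from SGN-2FF. CHAC1 differed by -0.01 (adjusted p = 0.960), CDH17 by 0.12, ASB9 by 0.14, BTG1 by -0.07 and ST6GAL1 by 0.06. The prostate kallikreins were lower with P-SiaFNEtoc than with SGN-2FF, KLK3 by -0.72 (adjusted p = 6.57e-15) and KLK2 by -0.51, and 10 of 23 androgen-regulated genes were lower and 1 higher. RSRP1 was lower than with SGN-2FF by -0.90 and than with Fucotrim I by -0.86, and DHRS2 was higher by 0.32 and 1.66.

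Many stress genes differed between P-SiaFNEtoc and the fucosylation inhibitors, and such a difference can come from a change with either inhibitor. Of 28 NRF2 targets, 20 were higher with P-SiaFNEtoc than with SGN-2FF and 0 lower (median 0.30), and 18 were higher and 1 lower than with Fucotrim I. With P-SiaFNEtoc against DMSO, 5 of them were called higher and 3 lower (median 0.05). The NRF2 targets OSGIN1 and NQO1, named after their values were seen, differed by 1.17 and 0.64 from SGN-2FF. With P-SiaFNEtoc against DMSO, OSGIN1 and NQO1 differed by 0.00 and 0.04. With SGN-2FF against DMSO, HMOX1 and GCLM were lower, by -0.78 and -0.64, and ABCC2 was higher, by 0.28. Of 33 genes of the ATF4 branch, 22 were higher than with SGN-2FF and 28 higher than with Fucotrim I. ER chaperones and degradation genes were higher than with Fucotrim I in 20 of 26, among them HYOU1 by 1.26. Against DMSO, HYOU1 differed by 0.12 with P-SiaFNEtoc and by -1.14 with Fucotrim I. Metallothioneins were lower than with SGN-2FF in 5 of 9 tested there, among them MT1G by -1.09. MT1G was above DMSO by 0.57 with P-SiaFNEtoc and by 1.66 with SGN-2FF. DKK1 was higher with P-SiaFNEtoc than with SGN-2FF by 0.30 (adjusted p = 5.95e-05) and than with Fucotrim I by 1.71. Its differences from DMSO were 0.26 with P-SiaFNEtoc, -0.04 with SGN-2FF and -1.45 with Fucotrim I. CDKN1B was higher with P-SiaFNEtoc than with SGN-2FF by 0.18 and did not differ beyond the spread from Fucotrim I (-0.04, adjusted p = 0.598).

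**Figure D5:**
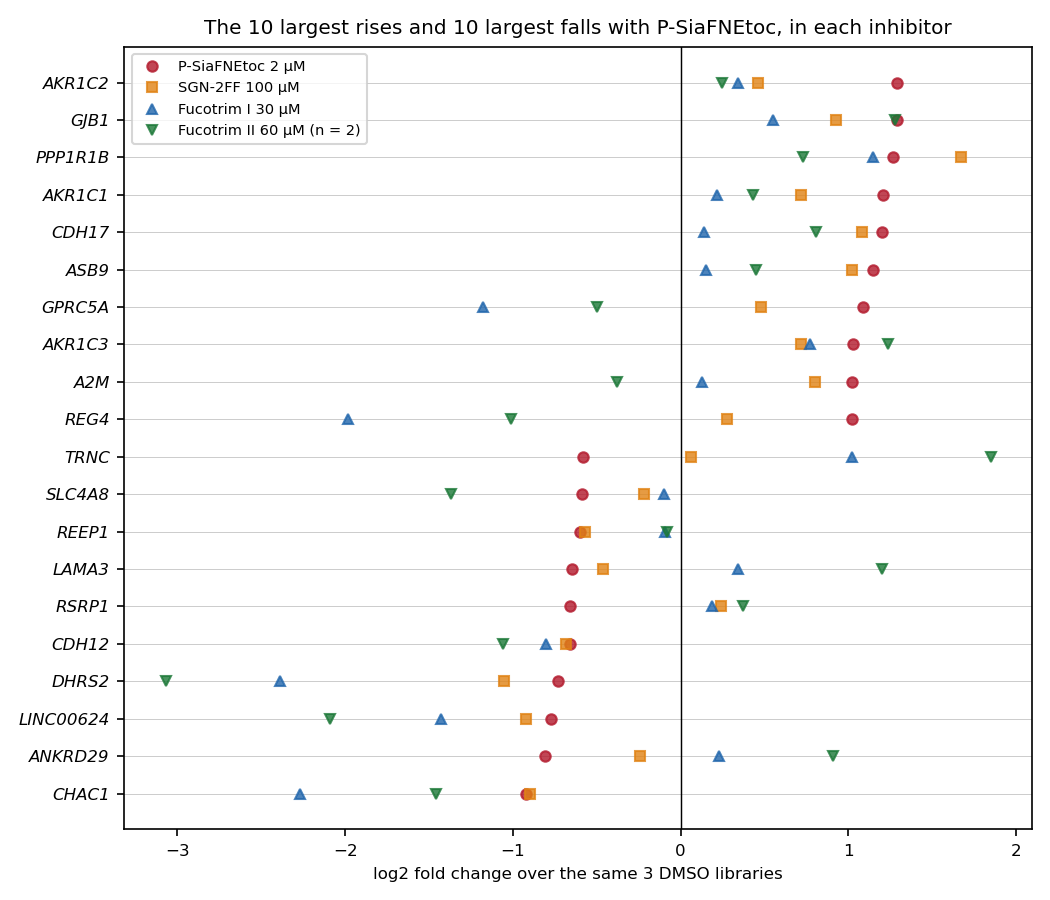
Log2 fold change over the same 3 DMSO libraries (x axis) of the 10 genes with the largest rises and the 10 with the largest falls with P-SiaFNEtoc, for each of the 4 inhibitors at its own dose (3 libraries each, 2 for Fucotrim II). CHAC1 lies below 0 with every inhibitor, and REG4 and GPRC5A lie above 0 with P-SiaFNEtoc and SGN-2FF and below 0 with Fucotrim I and Fucotrim II.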

How the data were processed

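RNA of CWR22Rv1 cells was sequenced by the authors as stranded mRNA libraries, and the reads were trimmed with Cutadapt, mapped to hg38 with HISAT2 and counted on genes with featureCounts. The submitters' processing notes also name FastQC and limma. The authors deposited whole-number counts per gene without normalization, in 1 table for each inhibitor with the same 3 DMSO libraries in each. The annotation, the strand setting and the treatment of reads with several matches are not given in the sources used here, so that reads of near-identical copies and of overlapping genes may have been split or lost. The precision of a value covers counting error and the spread between these libraries, whose totals ran from 15398882 to 19981453 counts. There were 0 value columns that belonged to no sample of the series.

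From the counts, P-SiaFNEtoc was fitted with DMSO alone in edgeR 4.0.16 (R 4.3.3). Low genes were left out with filterByExpr at a minimum count of 10 and a minimum total of 15. TMM factors scaled the libraries, and the robust quasi-likelihood test gave two-sided p-values, adjusted by the Benjamini-Hochberg method over all genes tested, with a threshold of 0.05. SE is the log2 fold change over the square root of its F statistic. The same test was run against SGN-2FF and Fucotrim I on the genes shared by the tables. On simulated counts of 14141 genes with 200 changed, the test found 85.7% of changes of 0.5 and 93.9% of changes of 1.0 on the log2 scale. There 5.35% of its calls were on unchanged genes. The simulated counts had no trend with GC content or length, and no gene had a spread above the trend with expression. So this share does not give the share of false calls in the real libraries. Changes as small as the median sizes of the real calls, 0.27 higher and 0.22 lower, were not simulated.

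Alternatives were leaving out each library, the replicate number as a block, DESeq2 1.42.0 (size factors and test), limma-voom (limma 3.58.1), other filters, a fit of all 14 libraries, no mitochondrially encoded genes, and stricter thresholds. Corrections for GC content, or GC content and length, were chosen after seeing the data; they used the longest GENCODE v44 transcript of each gene and a smooth trend per library.

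Genes named in the text were, among called genes whose mean reached 50 counts and whose groups do not overlap, the 10 largest rises, 10 largest falls, 10 smallest p-values and 10 largest CPM changes, all tested sialic acid pathway genes and sialyltransferases, up to 4 such called genes of each of the other lists by size of change, up to 2 members not called that stand for the role of a list, and CDKN1B, VEGFA, DKK1 and KLK3. ABCC3, GPX2, NQO1, OSGIN1, FAS, ALCAM, CLDN3, PKP2, FKBP5, DDIT3, ASNS, CDKN1A, TOB1, TOB2, BTG2, CDKN2B, CDKN2C, RB1, SIGLEC10, GFUS, FUT10 and the members of gene families defined by symbol were named after their values were seen. The 30 lists and the members were chosen with earlier results of these data known, and no list was tested as a set. Some genes that the rule names are not reported here.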

Additional observations from a re-analysis of the deposited data

How the results depend on the processing

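Against DMSO, P-SiaFNEtoc gave 2331 calls, 1286 higher and 1045 lower. Without 1 library there were 1516 (without P-SiaFNEtoc replicate 2) to 2115 (without DMSO replicate 1), with 631 (the same library) to 936 lower, and 666 lower without DMSO replicate 2. The DESeq2 test called 1482, with 595 lower, and a fit of all 14 libraries 998, with 672 higher and 326 lower. An adjusted p below 0.01 left 1171 (750 higher, 421 lower) and a log2 difference beyond 0.58 left 240 (205 higher, 35 lower). The other alternatives stayed within 1.5 times, among them limma-voom with 2228 and GC correction with 1720. In deviations from the group means, same-numbered libraries had correlations of -0.0504, 0.0384 and -0.00982. With 3 libraries per group these cannot show whether the replicates were paired. A block for the replicate number gave 2674 calls. Against SGN-2FF, leaving out 1 library gave 1047 (without SGN-2FF replicate 2; 1195 without P-SiaFNEtoc replicate 2) to 1792 (without P-SiaFNEtoc replicate 3) of 1850 calls, with 477 to 866 higher and 570 to 926 lower, and the block 1405. Correction for GC content and length raised the calls against SGN-2FF to 2564, with 1213 higher and 1351 lower. Against Fucotrim I the block gave 5125 of 4916 calls, and correction for GC content and length 5214. The causes were not tested. Of 118 called genes chosen by the rule, 85 kept their call and direction under every alternative other than the stricter thresholds, 33 lost the call under at least 1, and 0 turned direction. Of 960 list counts recomputed, 815 stayed within 1.5 times. The 3 libraries per group limit small differences most, and the lowest counted genes had the fewest calls.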

Other observations

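A stretch of chromosome 6 had almost no counts in these tables. Of 153 protein-coding genes lying between 29.5 and 33.5 Mb (hg38), 10 had enough counts to be tested (6.54%), beside 561 of 847 (66.2%) on the rest of the chromosome. In the stretch 129 genes had under 10 counts over the 6 libraries. NEU1, HSPA1A and HSPA1B, named above for their 2, 1 and 0 counts, lie in it, so that nothing can be read from these data about the lysosomal sialidase or the inducible HSP70 genes. The cause was not tested.

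The HOX genes and kinesins were looked at as families after their values were seen. Of 28 tested HOX genes 6 were called higher and 0 lower, and of 36 tested kinesins 11 were lower and 5 higher. Over all genes tested, 9.02% were called higher and 7.33% lower. KIF12 was among the smallest p-values of the table and rose by 0.72 ± 0.05, from 59.8, 60.7 and 60.7 CPM to 95.9, 103 and 101 CPM. Of 80 tested ribosomal protein genes, 1 was called higher and 3 lower (median -0.02). After correction for GC content and length 0 were higher and 18 lower (median -0.03), beside 7.73% and 5.84% of all genes tested.

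Other lists were these, to be read beside the 9.02% of all genes tested that were called higher against DMSO and the 7.33% called lower. Of 25 tested genes of cholesterol synthesis and uptake 4 were called higher and 1 lower against DMSO, and 14 were higher and 0 lower than with SGN-2FF. Of 19 histone genes 3 were higher and 1 lower, of 14 interferon response genes 2 and 1, and of 38 lysosomal genes 4 and 1. Of 10 prostate epithelial markers 7 were higher and 0 lower, and of 4 tested markers of other cell types 0 were called by edgeR, DESeq2 or limma-voom, with 1 at an unadjusted p below 0.05. Leaving out 1 library moved several of these counts: 2 cholesterol genes were higher without DMSO replicate 2 or 3 or P-SiaFNEtoc replicate 2 or 3, 1 histone gene was higher without DMSO replicate 2 and 0 lower without P-SiaFNEtoc replicate 2, 0 interferon genes were lower without DMSO replicate 1 or 3 or P-SiaFNEtoc replicate 2 or 3, and 1 marker of other cell types was higher without DMSO replicate 1.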
